A study of Drosophila melanogaster with 27 samples.

Results

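The 10 genes described here encode proteins that give a dividing neuroblast its polarity or pass into its differentiating daughter: *mira*, *brat*, *pros*, *insc*, *pins*, *aPKC*, *baz*, *par-6*, *l(2)gl* and *dlg1*. They were chosen by name out of 13968 protein-coding genes, and each was taken as its gene body with 5000 bp on each side. Positions are those of BDGP6 (Release 6). A peak or window that touched this stretch, called the gene window below, was assigned to the gene. Chromatin of third-instar larval brains was profiled by CUT&RUN, in which an antibody directs a nuclease to cut out the DNA its target occupies. All brains were *brat*-null (*brat11*/*Df(2L)Exel8040*), and they accumulate supernumerary type II neuroblasts. Control brains carried *fruC::myc*, a Myc-tagged knock-in of the zinc-finger protein Fruitless C (FruC), and *fruC*-null brains carried *fruC-DelC*/*fruAj96U3*. FruC (Myc antibody, called FruC-Myc below, and the Fru-common antibody FruCOM), Trl, Su(H), Caf-1 and Su(z)12 were each profiled in 2 replicates of 50 control brains. H3K27ac, H3K4me3 and H3K27me3 were profiled in 2 replicates of 25 brains of each genotype, and H3K9me3 in control brains. Since 1 of the 2 *brat* alleles is a deficiency in both genotypes, peak heights at *brat* can come from fewer gene copies than those elsewhere, and the values at *brat* are given as they stand. The brains are whole tissue, so a peak cannot be assigned to neuroblasts or to another cell type from these lists. By staining, the study found FruC::Myc in neuroblasts and not in the progeny that differentiate from them. The loci of the neuroblast genes *dpn*, *klu* and *pnt*, of *ase*, of the neuronal genes *elav* and *nSyb* and of the glial gene *repo* each held a FruC-Myc peak of both replicates, as did 39.7% of all protein-coding genes. A peak at a locus does not show in which cells the protein was bound.

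A neuroblast divides into another neuroblast and a smaller cell that differentiates. At mitosis the Par complex, made of the scaffold Bazooka (*baz*), the adaptor Par-6 and the kinase aPKC, marks the apical cortex. Inscuteable (*insc*) links it to Partner of inscuteable (*pins*), which orients the spindle. Lethal (2) giant larvae (*l(2)gl*) and the scaffold Discs large (*dlg1*) help to restrict fate determinants to the basal side. There the adaptor Miranda (*mira*) carries the translational repressor Brat and the homeodomain protein Prospero (*pros*) into the differentiating daughter. This scheme is not specific to type II neuroblasts. For those, the study names Brat and the Notch inhibitor Numb, but not Prospero, as basal proteins inherited by the daughter. Su(H) is the DNA-binding effector of Notch, Trl is the GAGA factor, and Su(z)12 and Caf-1 are subunits of Polycomb Repressive Complex 2, which deposits H3K27me3.

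Sequences at 8 of the 29 FruC-Myc regions described below are given first, with the reason for each beside its name, as the summit base of FruC-Myc replicate 1 with 50 bases on each side, read from Release 6 of the genome in the direction of the gene. Capitals mark GAGAG, the core bound by Trl, and TGGGAA, a core bound by Su(H), each on either strand.
*pros* intron, chr3R:11378883-11378983, the highest FruC-Myc region of all members: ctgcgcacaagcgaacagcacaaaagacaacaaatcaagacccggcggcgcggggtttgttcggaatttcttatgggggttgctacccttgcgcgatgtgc
*pros* internal promoter, chr3R:11372526-11372626, occupied in every peak list: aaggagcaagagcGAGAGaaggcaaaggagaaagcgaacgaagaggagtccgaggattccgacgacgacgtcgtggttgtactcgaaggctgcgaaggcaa
*pros* large intron, at the nested genes *KP78a* and *KP78b*, chr3R:11351830-11351930: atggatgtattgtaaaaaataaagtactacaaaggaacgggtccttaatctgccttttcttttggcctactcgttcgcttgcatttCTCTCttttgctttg
*mira* upstream, chr3R:19935649-19935749, shared with FruCOM and Su(z)12: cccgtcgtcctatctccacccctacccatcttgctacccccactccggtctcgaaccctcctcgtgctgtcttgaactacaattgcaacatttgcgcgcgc
*brat* intron, chr2L:19154978-19155078, the highest at *brat*: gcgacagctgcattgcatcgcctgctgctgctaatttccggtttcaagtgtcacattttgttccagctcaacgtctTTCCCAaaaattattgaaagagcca
*brat* intron, chr2L:19137020-19137120, with Trl in both replicates: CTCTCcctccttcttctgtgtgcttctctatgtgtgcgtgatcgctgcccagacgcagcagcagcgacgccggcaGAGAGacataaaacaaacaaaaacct
*dlg1* internal promoter, chrX:11389919-11390019, the highest at *dlg1*: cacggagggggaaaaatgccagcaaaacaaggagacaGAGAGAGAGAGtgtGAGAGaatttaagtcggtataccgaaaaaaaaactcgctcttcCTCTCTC
*l(2)gl* downstream flank, chr2L:4932-5032, the highest at *l(2)gl*: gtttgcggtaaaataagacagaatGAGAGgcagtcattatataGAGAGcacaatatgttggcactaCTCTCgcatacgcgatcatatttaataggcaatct
The *l(2)gl* sequence reads on the minus strand, as does that of *mira*. The *dlg1* sequence held 7 overlapping or separate GAGAG matches and that of *l(2)gl* 3, whereas the *pros* intron summit held neither motif.

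All 10 gene windows, each with its 5000 bp flanks, held a FruC-Myc peak of replicate 1 that shared at least 1 bp with a peak of replicate 2, against 39.7% of all protein-coding genes. Within the gene body alone 7 of 10 did, against 16.2% of all genes, since the regions of *insc*, *pins* and *l(2)gl* lay in the flanks. The member windows were longer than most, with a median of 26.6 kb against 12.2 kb for all genes, so that a count per window favours them. Per 10 kb of window, the summed density of FruC-Myc peaks was 2.30 at the members and 1.54 over all genes in replicate 1, and 0.830 and 0.421 in replicate 2. At a promoter, taken as 1000 bp upstream to 100 bp downstream of any annotated start site, 7 of 10 members held a peak of both replicates, against 17.3% of all genes. These were *mira*, *brat*, *pros*, *insc*, *pins*, *aPKC* and *dlg1*. At *pins* only the edge of the replicate 1 peak reached the promoter. Its summit lay at -1108 bp from the *pins* start, at the promoter of the neighbour *wdb*. The members had a median of 2 start sites and all genes a median of 1. None of these differences was tested, since a peak list of 2 replicates from 1 genotype offers no groups of samples to compare.

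The height of a peak was read as its −log10 Q, the significance MACS2 gave to its enrichment. Past the limit of 100 that the study set for FruC peaks, with both replicates merged and H3K9me3 regions removed, 5 of 10 members held a region, namely *pros*, *insc*, *pins*, *baz* and *dlg1*, against 13.5% of all genes. That count came from replicate 1: without replicate 1 it was 0, and without replicate 2 it was 5. Replicate 1 listed 15563 FruC-Myc peaks, 1225 of them past 100, and replicate 2 listed 5174 with 52 past 100. Just below the limit stood *l(2)gl* at 97.0, *mira* at 96.5 and *brat* at 96.4, and just above it *pins* at 106. At a limit of 50 all 10 members passed, against 36.4% of all genes.

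**Figure D1:**
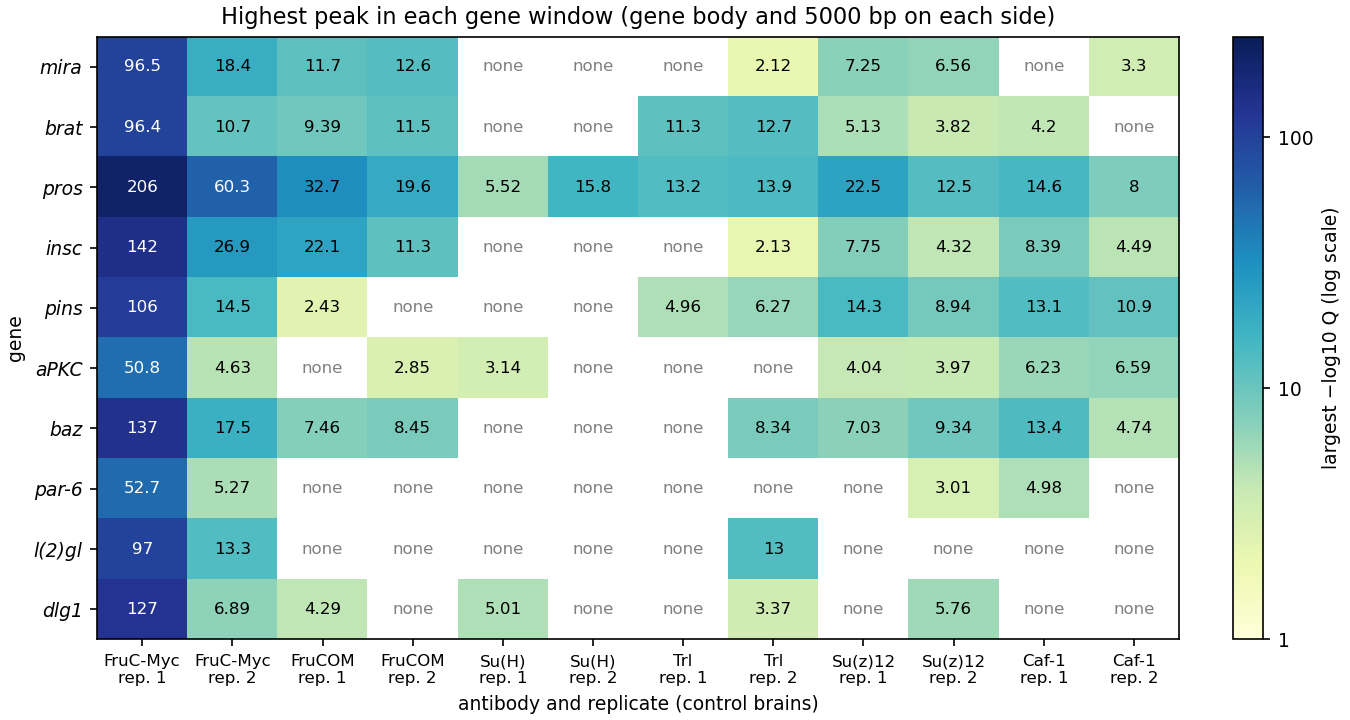
Largest −log10 Q of any peak in each gene window (rows) in each of the 12 peak lists (columns, 6 antibodies with 2 replicates), coloured on a log scale; "none" means that the list had no peak there. *pros* has a peak in all 12 lists and reaches 206 in FruC-Myc replicate 1, while *l(2)gl* has peaks in only 3 lists.

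*pros* held the highest FruC-Myc peak of the members in both replicates, in the longest window (89.1 kb). At this gene (FBgn0004595, chr3R:11328480-11407627), which encodes the homeodomain protein Prospero, the window held 18 FruC-Myc peaks in replicate 1 and 6 in replicate 2. Per 10 kb this was 2.02 and 0.673 peaks, below the 4.50 and 2.25 of *mira* and the 5.82 and 2.18 of *par-6*. Its highest region lay in an intron 6145 bp downstream of an internal start site (chr3R:11378570-11379155). There FruC-Myc reached a −log10 Q of 206 in replicate 1 and 60.3 in replicate 2. The fold enrichments that MACS2 gave were 18.2 and 20.8. In replicate 1 it ranked 187 of 15548 peaks and in replicate 2, 77 of 5159. Only 1.27% of protein-coding genes had a FruC-Myc peak as high in replicate 1, and 0.229% in replicate 2, so both replicates placed it near the top of their lists.

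Every other antibody also had a peak in both replicates at this *pros* intron. FruCOM gave 31.4 and 19.6, Su(H) 4.14 and 15.8, Trl 6.44 and 9.13, Su(z)12 9.75 and 8.14 and Caf-1 7.50 and 7.48 in replicates 1 and 2. Relative to the FruC-Myc summit of replicate 1, counted along the gene, the summits of Trl lay at -3 bp in both replicates and those of FruCOM at -13 and 0 bp. Those of Su(z)12 lay at -34 and -14 bp, those of Su(H) at -77 and -25 bp, and those of Caf-1 at -134 and -4 bp. The Su(H) lists were the shortest, with 611 and 513 peaks.

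A second *pros* region with peaks in all 12 lists covered the promoter of the internal start site at 11372788 (chr3R:11371828-11372798). FruC-Myc gave 110 and 15.8 there, FruCOM 18.5 and 7.49, Trl 13.2 and 13.9, and Su(z)12 16.5 and 12.5. For Trl, and for Su(z)12 in replicate 2, this was the highest peak of the *pros* window. Su(H) gave 2.90 and 7.54, but its replicate peaks did not overlap, and their summits lay at -197 and 61 bp from that of FruC-Myc.

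Further upstream, 3 FruC-Myc regions clustered around *KP78a* and *KP78b*, a pair of kinase genes nested in the large *pros* intron. The middle region (chr3R:11351598-11352335) reached 185 and 24.7, with Su(z)12 at 22.5 and 10.8. Caf-1 had peaks there in both replicates and gave 14.6 in replicate 1, its highest at any member in that list. The flanking regions reached 114 and 30.6, and 155 and 13.0. These regions lie at the start of the nested genes as well as in *pros*, and the lists do not assign them to either. At the 3 upstream start sites of *pros* no peak of both replicates was found for any antibody.

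*mira* (FBgn0021776, chr3R:19931799-19935120), whose product tethers Brat and Prospero to the basal cortex, held 3 FruC-Myc regions of both replicates. The highest spanned its start site (chr3R:19934998-19935195), with a summit at -9 bp from the start (negative is upstream), and gave 96.5 in replicate 1 and 18.4 in replicate 2. FruCOM gave 11.7 and 4.96 at the same place, and no Trl, Su(z)12, Caf-1 or Su(H) peak touched it. The other promoter region, at -579 bp, gave 67.7 and 8.02 for FruC-Myc and was shared with FruCOM (9.06 and 12.6) and Su(z)12 (7.25 and 6.56). The third lay 3726 bp downstream in an intron of *Hs6st*, the gene that contains *mira*, and gave 88.5 and 13.8. FruCOM (10.9 and 5.46) and Su(z)12 (5.99 and 4.13) had peaks there in both replicates. Trl (2.12) and Caf-1 (3.30) had one there in replicate 2 only. At the start site, then, only the 2 Fru antibodies had peaks, and the other 2 regions had Su(z)12 as well.

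At *brat* (FBgn0010300, chr2L:19133816-19179758), which encodes an NHL-domain translational repressor, the window held 18 FruC-Myc peaks in replicate 1, 8 of which met a replicate 2 peak. The highest, in an intron (chr2L:19154760-19155330), gave 96.4 and 10.7, with FruCOM at 5.67 and 3.73. A further 5 regions of both replicates lay 1608 to 6024 bp past the first start site and gave 16.5 to 59.0 in replicate 1. The highest of these 5 was at the promoter of the neighbour *Polr1D*. Trl had its only peak of both replicates at *brat* in this stretch (11.3 and 12.7). The region at the second start site (26.8 and 10.2) had its FruC-Myc summit at -179 bp. No Su(H) peak was listed at *brat*.

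**Figure D2:**
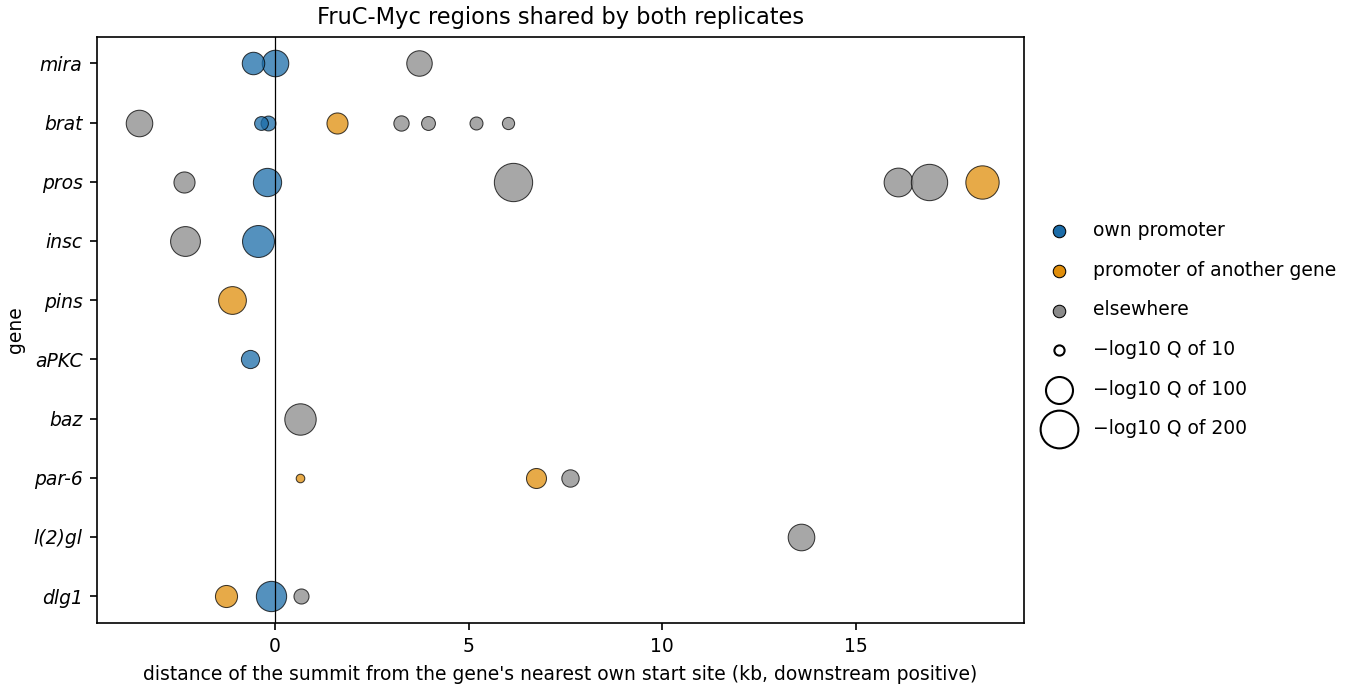
Position of the 29 FruC-Myc regions shared by both replicates, as the distance of the replicate 1 summit from the nearest start site of the gene in kb (x axis, downstream positive), for each gene (rows). Point area grows with the −log10 Q of replicate 1 and colour shows whether the summit lies in a promoter of the gene itself (8 regions), only of another gene (6) or elsewhere (15).

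Of the genes for the apical complexes, *insc* and *baz* had the highest FruC-Myc peaks. *insc* (FBgn0011674, chr2R:20821262-20836028), the adaptor between the Par complex and the spindle machinery, had its highest region at -448 bp from its start (chr2R:20836328-20836706), where FruC-Myc gave 142 and 26.9. FruCOM gave 13.0 and 9.29 there and Caf-1 8.39 and 3.62. Its start site is shared with *sktl*, the phosphatidylinositol-phosphate kinase gene nested in *insc*, so the promoter belongs to both annotations. A second *insc* region at -2337 bp gave 123 and 18.4, with FruCOM at 22.1 and 11.3. Both replicates therefore placed FruC at 2 sites upstream of *insc*.

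*baz* (FBgn0000163, chrX:17160006-17200728), the Par-3 homologue, held its only FruC-Myc region of both replicates 640 bp past the start, in the 5′ UTR (chrX:17160435-17160880). The summits of the replicates fell on the same base, and the heights were 137 and 17.5. FruCOM gave 7.46 and 8.45, Su(z)12 7.03 and 9.34 and Caf-1 13.4 and 4.74, while Trl was listed in replicate 2 only (8.34). At the *baz* start itself replicate 1 had a FruC-Myc peak of 51.1 and replicate 2 none.

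*aPKC* (FBgn0261854, chr2R:14944458-14962969) and *par-6* (FBgn0026192, chrX:17703352-17707096), the other members of the Par complex, had lower FruC-Myc peaks than *baz* but more of them per 10 kb (2.81 and 5.82 against 0.789 in replicate 1, and 0.701 and 2.18 against 0.197 in replicate 2). The FruC-Myc region of both replicates at *aPKC* lay at -652 bp from an internal start (chr2R:14958935-14959212) and gave 42.7 and 4.63, with Su(z)12 at 4.04 and 3.97. The highest *aPKC* peak, 50.8 in replicate 1, lay in an intron of the divergent neighbour *ckn* and had no counterpart in replicate 2. At *par-6* the start site held a FruC-Myc peak of 47.6 in replicate 1 and none in replicate 2. Of the regions of both replicates in its window, 1 was at *raskol* and *CG8173* (52.7 and 4.01) and 1 in the 5′ UTR of *raskol* (38.4 and 5.27). Another had its summit 641 bp inside *par-6*, at a promoter of the neighbour *CG8188*, and gave 5.65 and 4.14. In replicate 1 this was the lowest of the 29. Of all protein-coding genes, 36.0% had a FruC-Myc peak at or above that of *aPKC* in replicate 1 and 34.8% at or above that of *par-6*.

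*pins* (FBgn0040080, chr3R:27582840-27586376), which binds Inscuteable and the G protein that anchors the spindle, had its region at -1108 bp from its start, at the promoter of the divergent gene *wdb* (chr3R:27581569-27581895). FruC-Myc gave 106 and 14.5, Su(z)12 14.3 and 8.94, Caf-1 13.1 and 10.9 and Trl 4.96 and 6.27, each in both replicates. FruCOM was listed there only in replicate 1, at 2.43, whereas the other regions past 100 at *pros*, *insc* and *baz* had FruCOM in both. At *dlg1* (FBgn0001624, chrX:11369665-11409776) the region past 100 (chrX:11389596-11390210, 127 and 6.89) had no FruCOM, Su(H), Trl, Su(z)12 or Caf-1 peak at all, and the nearest Trl peak, of replicate 2 only (3.37), ended just outside it. It covered a group of internal start sites, with its summit at -100 bp from the nearest.

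*l(2)gl* (FBgn0002121, chr2L:9839-21376), near the end of the chromosome arm, had peaks in the fewest lists. It held its only FruC-Myc region of both replicates 13588 bp past its nearest start, in the downstream flank (97.0 and 13.3), with a Trl peak of replicate 2 at the same base (13.0). Its start sites held FruC-Myc peaks of 36.4 and 27.9 in replicate 1 and none in replicate 2. FruCOM, Su(H), Su(z)12 and Caf-1 had no peak in the *l(2)gl* window.

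**Figure D3:**
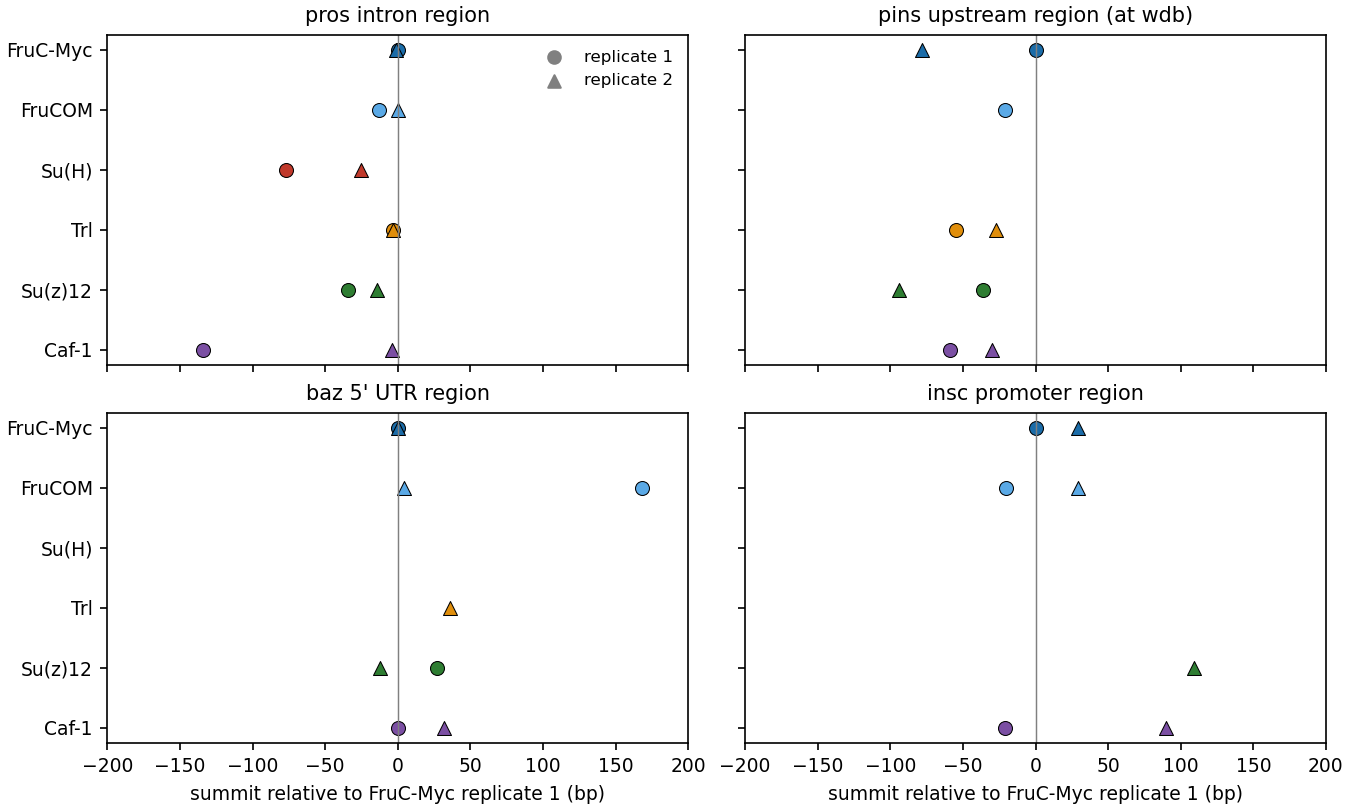
Distance in bp of the peak summit of each antibody (rows) from the FruC-Myc summit of replicate 1, for the highest region at *pros*, *pins*, *baz* and *insc*; circles are replicate 1 and triangles replicate 2, and a missing marker means no peak. At *pros* all 6 antibodies have both replicates, and the farthest summit is that of Caf-1 replicate 1 at -134 bp.

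The other antibodies met at fewer of the genes. FruCOM had a peak of both replicates at 5 of 10 members (*mira*, *brat*, *pros*, *insc*, *baz*), against 18.2% of all genes, and at the promoter of 3 (*mira*, *pros*, *insc*), against 6.85%. Su(z)12 did so at 5 members (*mira*, *pros*, *pins*, *aPKC*, *baz*), against 16.5%, and at 3 promoters (*mira*, *pros*, *aPKC*), against 6.92%. Caf-1 did so at 4 (*pros*, *insc*, *pins*, *baz*), against 11.6%, and at 2 promoters (*pros*, *insc*), against 4.44%. Both Polycomb subunits together were found in both replicates at *pros*, *pins* and *baz*. The share of all genes with both subunits is not given, so this count is not read as particular to the members.

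Trl had a peak of both replicates at 3 members (*brat*, *pros*, *pins*), against 6.14% of all genes, and at 1 promoter (*pros*), against 2.30%. Su(H) had one at *pros* only, against 1.45%, and at the promoter of no member, against 0.372%. The replicates differed in how many members they reached. Trl had a peak at 3 members in replicate 1 and 8 in replicate 2, against 11.1% and 13.7% of all genes. Su(z)12 had one at 7 and 9, against 29.6% and 21.5%, and Caf-1 at 7 and 6, against 25.1% and 15.6%. FruCOM had one at 7 and 6, against 29.2% and 21.0%, and Su(H) at 3 (*pros*, *aPKC*, *dlg1*) and 1, against 3.10% and 2.11%.

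The same was counted at 18 other genes of asymmetric division and polarity. FruC-Myc of both replicates was found at 14 of 18 windows, against 39.7% of all genes, and at 10 of 18 promoters, against 17.3%. A region past 100 was found at 6 (*numb*, *Gbeta13F*, *loco*, *spdo*, *Lkb1*, *Patj*), against 13.5%. Window lengths of these 18 genes are not given, so longer windows can favour them as well. *numb*, which encodes the Notch inhibitor inherited by the basal daughter, gave 147 and 32.3, and *spdo*, whose product acts with Notch, 152 and 30.4. *loco*, a regulator of G protein signalling that acts with Pins, gave 182 and 24.9, the highest of the list in replicate 1. *numb* was the only gene of the 18 with Su(H) in both replicates (5.78 and 7.54) and the only one with Trl in both that overlapped. FruCOM was found at 10 of 18, Su(z)12 at 9 and Caf-1 at 6, against 18.2%, 16.5% and 11.6% of all genes. *pon*, *aurA*, *crb* and *Khc-73* had a FruC-Myc peak in replicate 1 only.

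**Figure D4:**
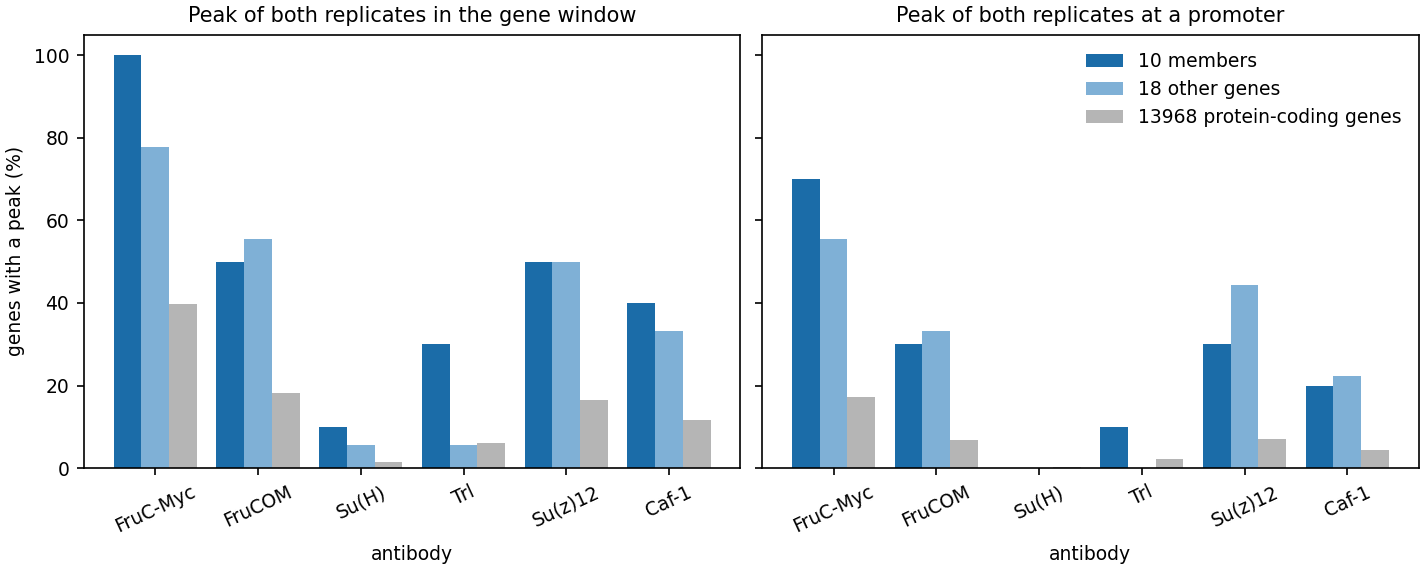
Percentage of genes with a peak of both replicates in the gene window (left) and at a promoter (right), for each antibody (x axis), in the 10 members (dark blue), 18 other genes of asymmetric division and polarity (light blue) and all 13968 protein-coding genes (grey). FruC-Myc reaches all 10 members and 39.7% of all genes, and window length differs between the groups.

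The 29 FruC-Myc regions of both replicates were set beside all such regions of the genome. Their median −log10 Q in replicate 1 was 67.7 against 61.8 over all 4967 regions, and the median fold enrichment 7.13 against 8.53. A FruCOM peak of either replicate overlapped 20 of the 29 (69.0%, 95% Wilson interval 50.8 to 82.7%), against 64.1% of all regions. For Su(z)12 the share was 55.2% (37.5 to 71.6%) against 48.1%, for Caf-1 37.9% (22.7 to 56.0%) against 41.7%, for Trl 37.9% (22.7 to 56.0%) against 28.9% and for Su(H) 17.2% (7.60 to 34.5%) against 10.0%. Each genome-wide share lay inside the interval for the members, which covers counting error only and treats regions of 1 gene as independent. The Su(H) share was 10.3% without its replicate 1 and 13.8% without its replicate 2, and that of Trl 17.2% without its replicate 2. With a peak of both replicates of the other antibody required, the share was 27.6% against 20.8% of all regions for Caf-1 and 27.6% against 28.6% for Su(z)12, so that the order of members and genome turned for both. It was 48.3% against 41.8% for FruCOM, 17.2% against 12.0% for Trl and 6.90% against 5.82% for Su(H). When 50% of each region had to be covered, the FruCOM share was 34.5%, the Su(z)12 share 34.5% and the Trl share 6.90%.

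All 5 other antibodies overlapped 3 of the 29 regions (10.3%), all of them at *pros*, against 6.52% of all regions. No other antibody overlapped 6 regions (20.7%), at *brat*, *par-6* and *dlg1*, against 23.4%. The replicate summits of FruC-Myc lay a median of 36.0 bp apart, and 16 of 29 pairs were within 50 bp. GAGAG was found within 50 bases of 14 of the 29 summits (48.3%), against 37.2% of all FruC-Myc summits and 11.5% of equal stretches at the outermost start site of each gene. It was present in 6 of the 11 member regions with Trl (54.5%, against 48.6% of all FruC-Myc regions with Trl) and in 8 of the 18 without (44.4%, against 32.7%). TGGGAA was found at 1 of 29, the *brat* intron, against 5.38% of all summits and 5.28% of start sites. These matches overlap each other in part and do not show that a factor binds.

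Histone marks were deposited as lists of windows that the comparison of *fruC*-null with control brains returned, with no value per sample. Only their positions were used here, so they locate the listed windows but say nothing of the size or direction of a change. The study describes the listed regions as those with significant changes between the genotypes. Coverage by them therefore does not measure how much of a gene carries the mark. All 10 members held a listed H3K27ac window (88.4% of all genes), a listed H3K4me3 window (86.4%) and a listed H3K27me3 window (85.1%). H3K27ac windows covered a median of 39.9% of the member windows against 32.6% over all genes, H3K4me3 windows 51.1% against 43.5%, and H3K27me3 windows 22.7% against 12.1%. With the gene body alone, the H3K27me3 median of the members was 8.57%.

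The members fell along a wide range of coverage by these listed windows. *mira* was the most covered by H3K27ac (74.5%), with H3K4me3 at 64.2% and H3K27me3 at 57.8%. At *pros* the listed windows covered 39.9%, 51.7% and 47.8%, and at *brat* 55.0%, 55.0% and 25.7%. *pins* was the most covered by H3K4me3 (66.9%). *dlg1* was the least covered by H3K27ac (5.79%) and H3K27me3 (4.24%) and *baz* by H3K4me3 (13.9%). *l(2)gl* was the most covered by H3K27me3 (61.7%) but had 19.8% for H3K27ac. At least 1 start site lay in an H3K4me3 window in all 10 members, against 60.2% of all genes. For H3K27ac windows this held in 7, against 47.5%, and for H3K27me3 windows in 6, against 33.0%. Such a count favours genes with more start sites, and the members had a median of 2 against 1 for all genes. In H3K27me3 windows lay 1 of 7 start sites of *dlg1* and 1 of 4 of *pros*.

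**Figure D5:**
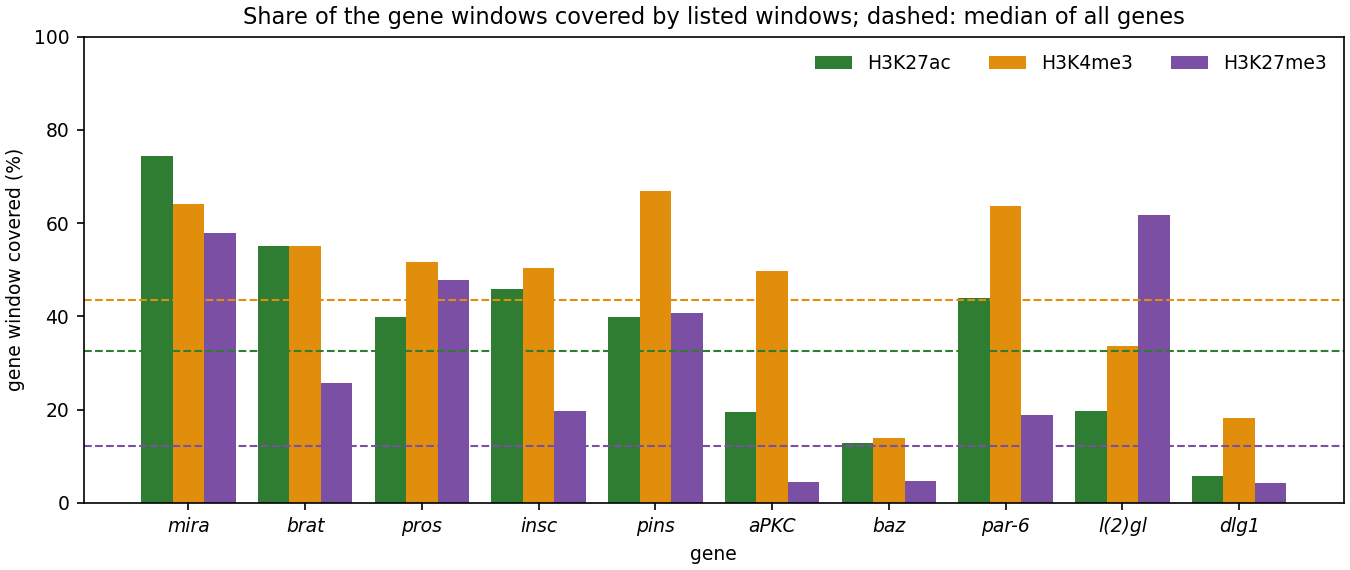
Percentage of each gene window (bars) covered by the listed H3K27ac, H3K4me3 and H3K27me3 windows, with the median of all protein-coding genes as dashed lines. *mira* and *l(2)gl* are the most covered by listed H3K27me3 windows, and *dlg1* and *baz* have low coverage by the listed windows of every mark.

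H3K9me3, the mark of constitutive heterochromatin, had a peak at 5 of 10 members (*mira*, *pros*, *baz*, *l(2)gl*, *dlg1*), against 30.8% of all genes. None was past 100, as for nearly all genes (0.0215% held such a peak). The median −log10 Q of the whole H3K9me3 list was 8.99, and the highest member peaks of *l(2)gl*, *baz*, *pros* and *mira* stood above it. The highest was 32.1 at *l(2)gl*, over its promoter, which overlaps a coding exon of the neighbour *Ir21a*. *mira* held a peak of 12.0 and *pros* 12.8, both over their own coding exons, and the 3 peaks at *baz* (up to 20.6) lay in a *flea* transposon in its intron. No FruC-Myc region of both replicates at a member overlapped an H3K9me3 peak (0 of 29, with a 95% Wilson interval up to 11.7%), against 16.1% of all such regions. That interval covers counting error only and treats the 29 regions as independent, although they come from 10 genes. The difference was not tested.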

How the data were processed

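Peak lists of 12 samples (6 antibodies, 2 replicates), 1 H3K9me3 list and 3 tables of histone windows were analysed. Per the study's methods, the authors aligned reads to BDGP6.32 with bowtie2, kept fragments under 120 bp for transcription factors and called peaks per replicate with MACS2. The deposited lists hold a fold enrichment and a −log10 Q for each peak. Whether the H3K9me3 replicates were pooled before calling is not given in the sources used here. The deposited window tables came from diffReps with 500 bp windows. Their remaining columns give the result of the authors' own comparison of *fruC*-null with control (direction, size, significance), and none was used. The gene name column did not match the coordinates and was not used. Reads per sample are unknown, so peak heights of different lists were not compared, and the IgG sample was not analysed here.

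Genes and start sites came from Ensembl release 115. Peaks ended within the chromosomes of the Release 6 reference. Peaks sharing at least 1 bp overlapped. For the count past 100, H3K9me3 peaks past 100 were merged within 3000 bp and overlapping FruC-Myc regions removed; the ENCODE blacklist was not used. The study processed replicates independently, but the spread between 2 lists gives no test. Named genes were the 10 members and a list of 18, and genes their windows overlap. The members and lists were chosen with earlier results of these data known. Interval code (Python 3, pandas) was tested on simulated data against bedtools.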

Additional observations from a re-analysis of the deposited data

How the results depend on the processing

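Of 124 values recomputed under other settings, 86 stayed within the limits set for a changed value and 38 did not. Leaving out *brat*, chosen after the data were seen, moved no count of members by over 1.5 times. The count of members with a FruC-Myc region past 100 was 5. It rose to 10 at a limit of 50, against 36.4% of all genes. The count was also 10 at a limit of 10 and with all peaks as deposited. As deposited, 77.2% of all genes held a FruC-Myc peak of replicate 1, so that setting hardly separates the members from other genes. It fell to 3 with no flank, and ranged from 0 to 5 when a replicate was left out. With peaks above 10 only, members with FruCOM in both replicates fell from 5 to 2, with Su(H) from 1 to 0, with Su(z)12 from 5 to 1 and with Caf-1 from 4 to 1, and at promoters FruCOM fell from 3 to 0, Su(z)12 from 3 to 1 and Caf-1 from 2 to 0. With no flank Su(z)12 fell to 3, Caf-1 to 2 and FruC-Myc from 10 to 7, the last against 16.2% of all genes. For the other counts above 10 or with no flank, shares over all genes are not given. Those falls are therefore not read as particular to the members.

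Leaving out a replicate gave 1 to 3 members with Su(H), 3 to 8 with Trl, 7 to 9 with Su(z)12 and 6 to 7 with Caf-1, and at promoters 1 either way with Su(H), 1 to 2 with Trl and 3 to 5 with Su(z)12. Shares of all genes with a promoter peak in a single replicate are not given. These promoter counts are therefore not read as particular to the members. With 50% of the region covered, the share of FruC-Myc regions was 34.5% for FruCOM, 0% for Su(H), 6.90% for Trl, 34.5% for Su(z)12 and 13.8% for Caf-1. With FruC-Myc regions above 10 of either replicate it was 32.8% for FruCOM, 18.8% for Trl, 25.0% for Su(z)12, 21.9% for Caf-1 and 9.38% for Su(H). Leaving out a replicate of the other antibody gave 48.3 to 69.0% for FruCOM, 10.3 to 13.8% for Su(H) and 17.2 to 37.9% for Trl. Requiring a peak of both its replicates, chosen after the data were seen, gave 48.3% for FruCOM, 6.90% for Su(H), 17.2% for Trl, 27.6% for Su(z)12 and 27.6% for Caf-1. Without the flank the H3K27me3 median was 8.57%. The cause of these changes was not tested. Stricter limits and shorter windows keep fewer peaks. The FruC-Myc regions above 10 of either replicate are another set, which does not require a peak of both replicates, so their shares have another base. No paired analysis was possible because the results come from no test. Depth was unknown, so an absent peak does not show that a protein was absent.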
